A study of Homo sapiens with 8 samples.

Results

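The 33 genes described here encode the machinery that builds cholesterol and fatty acids and the regulators that switch it on. They were taken by symbol from a table of 60754 genes, and all 33 had a TPM (a transcript level scaled for length and for the library total) of 1 or more in some library, as did 15614 genes in all. The group was selected on the changes measured in these same libraries, namely those from parental to resistant cells within a clone and how they differed between clones. Those changes are therefore given as a description and support nothing by themselves. The cells were SEM, an established human line of B-lineage acute lymphoblastic leukemia with a rearranged KMT2A gene, in which both alleles of *CTCF* carry a miniAID-mClover3 tag at the 3′ end. All cells also expressed OsTIR1(F74G) with a Zeocin resistance gene from a lentivirus, so that the auxin analog 5-Ph-IAA marks the tagged *CTCF* protein for degradation. The clones C17.2 and C3.2 each grew from a single cell. Parental cells were untreated, and resistant cells had grown with 1 µM 5-Ph-IAA and 100 µg/ml Zeocin up to day 36 and were then taken off both drugs. The study describes a nonsense change in *CTCF* in the resistant cells of C17.2 and a missense change in the degron tag in those of C3.2, neither of which was examined here.

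Each of the 4 groups had 2 RNA-seq libraries, 8 in all. The labels give no replicate numbers, and replicates 1 and 2 of a group are named here by the order of the deposited columns. The labels do not say that the 2 libraries of a group came from separate cultures, so p-values measure only the spread between these libraries. All 7 B-lineage markers were expressed (671 to 798 TPM summed per library), and the 4 T-lineage markers summed to at most 0.25 TPM, with 1 of them at 0 throughout. Myeloid markers summed to 2.23 to 4.10 TPM, and of 4 stromal markers only *COL1A1* was above 0, with sums of 2.24 to 3.00 in parental and 3.35 to 7.45 in resistant libraries. The part of these RNAs in the results below was not tested. RNA of *CTCF*, the tagged gene, rose from parental to resistant cells, with log2 changes of 0.44 (C17.2) and 0.33 (C3.2) and adjusted p of 0.000799 and 0.00686 in limma. The call in C3.2 was lost without parental replicate 2 of that clone (0.31) and with that clone fitted alone. The numbers that open the sample titles run in 1 series for each clone, and the labels do not say what they stand for, so anything they mark cannot be told apart from the clone in a direct comparison of the clones. In bulk RNA, fewer cells that express a gene and less RNA per cell cannot be told apart.

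Sterol regulatory element-binding proteins (SREBPs) are transcription factors made as membrane precursors in the endoplasmic reticulum. When sterols are scarce, the escort protein *SCAP* carries them to the Golgi, where they are cut and released to the nucleus, and INSIG proteins hold *SCAP* back when sterols are plentiful. SREBP-2, from *SREBF2*, acts mainly on cholesterol genes, and SREBP-1, from *SREBF1*, mainly on fatty acid genes. Since the factors are controlled by cutting, their RNA level is not a measure of their activity.

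The promoters of 4 genes are shown here because these genes carry the main contrasts below, namely the factor itself, the synthesis gene with the widest split between the clones, the feedback regulator and the sterol enzyme that did not follow the others. Each is the 250 bases before the RefSeq start of the gene (assembly GRCh38.p14), read 5′ to 3′ on the gene's strand. *SREBF2* lies on the forward strand (chr22:41832855-41833104), *HMGCS1* on the reverse strand (chr5:43313413-43313662), *INSIG1* on the forward strand (chr7:155297628-155297877) and *TM7SF2* on the forward strand (chr11:65111622-65111871). Capitals mark the core of a sterol regulatory element, TCACNCCAC, its shorter form CACNCCAC, and the CCAAT box bound by NF-Y, each on either strand (a CCAAT box on the other strand reads ATTGG).
SREBF2: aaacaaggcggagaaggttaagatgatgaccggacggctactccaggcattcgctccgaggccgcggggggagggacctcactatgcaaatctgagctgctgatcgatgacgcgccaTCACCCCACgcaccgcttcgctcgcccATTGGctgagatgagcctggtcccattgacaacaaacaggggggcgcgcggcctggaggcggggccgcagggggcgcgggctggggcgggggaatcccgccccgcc
HMGCS1: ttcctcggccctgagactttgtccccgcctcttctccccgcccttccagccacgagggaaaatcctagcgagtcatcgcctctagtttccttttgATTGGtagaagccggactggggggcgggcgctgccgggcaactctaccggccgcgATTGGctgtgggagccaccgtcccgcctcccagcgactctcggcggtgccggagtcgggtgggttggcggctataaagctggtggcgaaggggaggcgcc
INSIG1: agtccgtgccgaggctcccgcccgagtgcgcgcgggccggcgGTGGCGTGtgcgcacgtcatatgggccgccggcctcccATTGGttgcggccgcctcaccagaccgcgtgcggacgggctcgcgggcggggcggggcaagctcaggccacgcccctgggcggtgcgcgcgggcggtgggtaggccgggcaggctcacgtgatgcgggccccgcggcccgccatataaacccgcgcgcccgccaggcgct
TM7SF2: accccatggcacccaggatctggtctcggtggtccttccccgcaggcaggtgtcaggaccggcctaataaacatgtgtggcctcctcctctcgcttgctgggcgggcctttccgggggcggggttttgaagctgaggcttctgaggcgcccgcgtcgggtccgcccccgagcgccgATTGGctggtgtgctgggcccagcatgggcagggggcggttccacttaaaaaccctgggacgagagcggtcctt

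The *SREBF2* stretch held the core element at position -133, counted from the start site, with a CCAAT box at -106. *INSIG1* held the shorter core on the other strand at -208 and a CCAAT box at -170. *HMGCS1* held 2 CCAAT boxes, at -155 and -100, and *TM7SF2* held 1, at -74, and neither of these had a match to either core in this window. RefSeq windows, each running 50 bases past the start, were matched for 29 of the 33 genes. The core element was in 1 of the 29 windows (3.45%) against 1.15% of all 27305 promoters in the table. The shorter core, searched after that count was seen and contained in every match to the longer one, was in 4 of 29 (13.8%, in *SREBF2*, *INSIG1*, *SC5D* and *SCD*) against 5.74%. A CCAAT box was in 18 of 29 (62.1%) against 35.7% of all promoters and 37.9% of the 9263 promoters of tested genes. GC boxes (GGGCGG) were in 27 of 29 (93.1%) against 44.6% of all promoters and 70.3% of those of tested genes. E-boxes (CACGTG) were in 4 of 29 (13.8%) against 7.43% of all promoters and 10.5% of those of tested genes. A match is a description of letters, not evidence that a factor binds there.

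Changes from parental to resistant cells ran in opposite directions in the clones. Genes of the pathway were mostly higher in resistant than parental cells of C17.2 and mostly lower in C3.2. In C17.2, 19 of the 33 genes rose, 4 fell and 10 did not pass the threshold, an adjusted p of 0.05 in limma with Benjamini-Hochberg adjustment over the 15614 genes. Of all tested genes 13.4% rose and 13.9% fell in that comparison. In C3.2, 0 rose, 19 fell and 14 did not pass, against 4.44% and 6.91% of all tested genes. The median log2 change over the 33 genes was 0.24 in C17.2 and -0.31 in C3.2, where the median of all tested genes was 0. At least 1 fit without a single library ended 10 of the 23 calls in C17.2 (*SREBF1*, *SREBF2*, *MVK*, *PMVK*, *MVD*, *CYP51A1*, *NSDHL*, *SC5D*, *DHCR7* and *ACSS2*) and 11 of the 19 in C3.2 (*SREBF1*, *ACAT2*, *FDPS*, *SQLE*, *CYP51A1*, *MSMO1*, *EBP*, *DHCR7*, *STARD4*, *ACLY* and *FADS2*). The 23 became 14 without C17.2 parental replicate 1 and 15 without C17.2 resistant replicate 2, and the 19 became 9 and 8 without C3.2 parental replicates 1 and 2. The falls of *SREBF1*, *ACAT2*, *SQLE*, *EBP*, *STARD4* and *FADS2* in C3.2 were also lost under each of the 3 other scalings.

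Changes here are differences of log2(scaled TPM + 1), which understates the change of low genes. Scaled TPM is the deposited TPM divided by 1 factor per library (0.894 to 1.15). The change in C17.2 minus the change in C3.2 is called the difference between the clones. It passed the threshold in limma for 19 of the 33 genes, all 19 positive, against 4.97% of tested genes positive and 5.00% negative. The median difference was 0.55. In 13 genes the rise in C17.2 and the fall in C3.2 each passed, which 61 of the 15614 tested genes did (0.391%). These 13 were *INSIG1*, *ACAT2*, *HMGCS1*, *IDI1*, *FDPS*, *FDFT1*, *SQLE*, *CYP51A1*, *MSMO1*, *EBP*, *DHCR7*, *ACLY* and *FADS2*. Without 1 library of C17.2 parental cells the 13 became 7 or 8, and without 1 of C3.2 parental cells 5 or 4 (replicates 1 and 2 in that order). Both resistant libraries lay above both parental ones in C17.2 and below them in C3.2 for 21 genes. The share of all tested genes with this arrangement was not counted, so the 21 cannot be set against it.

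**Figure D1:**
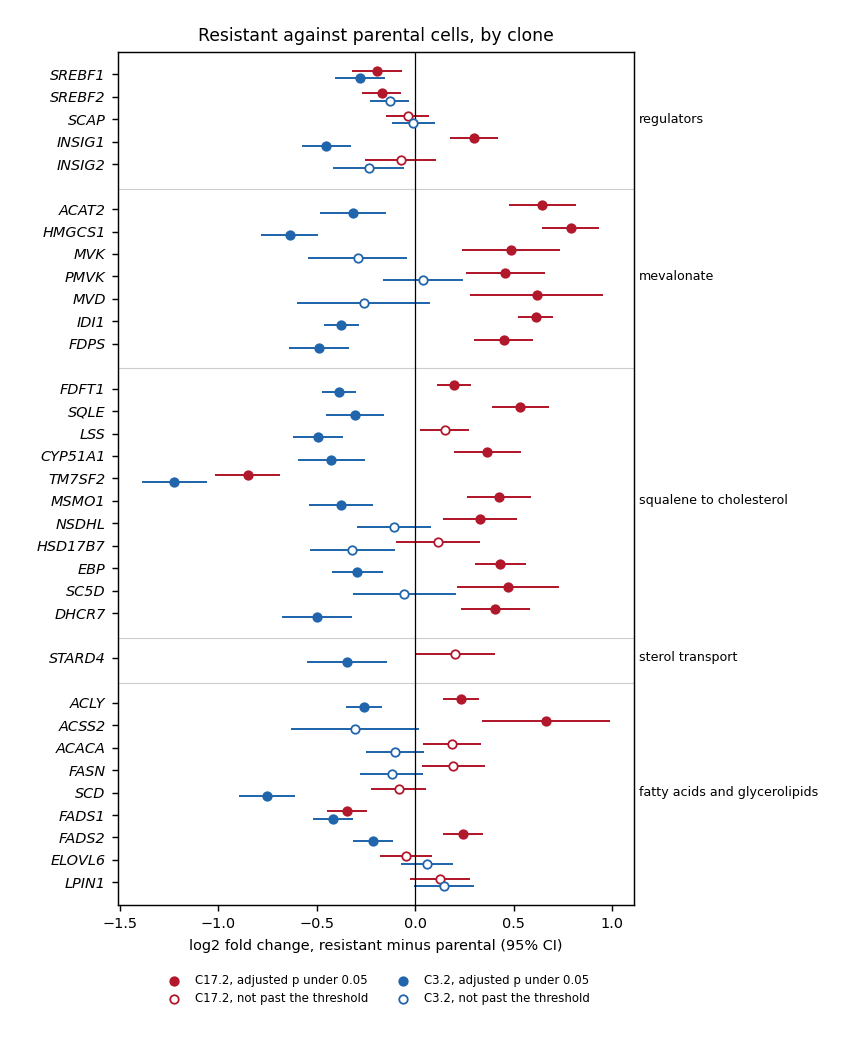
Log2 fold change of each of the 33 genes from parental to resistant cells (x axis, 95% confidence interval from limma), in C17.2 (red) and C3.2 (blue), with genes ordered by role on the y axis. Filled points passed the threshold over all tested genes. Most mevalonate and sterol genes sit right of 0 in C17.2 and left of 0 in C3.2, while SREBF1, TM7SF2 and FADS1 passed the threshold left of 0 in both.

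The regulators did not share a pattern. *SREBF2* (ENSG00000198911.12) stood at 145 and 147 scaled TPM in the parental and 132 and 128 in the resistant libraries of C17.2, and at 122 and 124 against 110.1 and 114 in C3.2. *SREBF1* stood at 139 and 137 against 124 and 117 in C17.2 and at 114 and 116 against 90.5 and 97.9 in C3.2. For both factors, every resistant library was below every parental library of its clone. The fall passed the threshold for *SREBF1* in both clones (-0.20, SE 0.053, and -0.28, SE 0.053) and for *SREBF2* in C17.2 (-0.17, SE 0.041), while *SREBF2* in C3.2 was at -0.13 (adjusted p = 0.0981 in limma). In C17.2 both calls were lost under each of the 3 other scalings, with a smallest change of -0.036 for *SREBF1* and -0.0094 for *SREBF2* on the TPM as deposited. In C3.2 the call for *SREBF1* was lost under the same 3, with adjusted p of 0.0831, 0.0753 and 0.170 in limma. Neither factor's change differed between the clones past the threshold (0.087, 95% interval -0.093 to 0.27, and -0.040, interval -0.18 to 0.099). *SREBF1* overlaps *RAI1* on the opposite strand, a gene with up to 25.68 TPM, and how reads were divided between them was not tested.

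*INSIG1* (ENSG00000186480.13), which retains *SCAP* when sterols are plentiful and is itself a textbook SREBP target, went with the synthesis enzymes instead. Its parental libraries of C17.2 held 69.1 and 68.1 scaled TPM and the resistant ones 84.4 and 84.9, against 102 and 106 and then 72.4 and 78.9 in C3.2. It rose by 0.30 in C17.2 and fell by 0.45 in C3.2 (difference 0.75, SE 0.073, adjusted p = 0.00311 in limma). Its paralog *INSIG2* read 8.86 and 8.17 in parental and 8.59 and 7.51 in resistant libraries of C17.2, which overlap, and 9.18 and 9.02 against 7.71 and 7.43 in C3.2, which do not. Neither *INSIG2* change passed (-0.074 and -0.24). *SCAP* was 30.96 and 32.6 against 30.4 and 31.5 in C17.2 and 29.8 and 29.1 against 29.4 and 29.1 in C3.2, with both pairs overlapping. Its changes were -0.038 (interval -0.15 to 0.072) and -0.0090 (interval -0.12 to 0.10), and their signs turned with the scaling of the libraries.

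The mevalonate pathway joins acetyl-CoA units and turns them into the isoprenoid building blocks of sterols, prenyl groups and dolichol. All 7 of its genes rose in C17.2, by 0.45 to 0.79, and 4 fell in C3.2. Of all tested genes 13.4% rose in C17.2 and 6.91% fell in C3.2. *HMGCS1* (ENSG00000112972.15), the synthase of HMG-CoA, had the widest split of the 33 genes. It held 71.7 and 69.6 scaled TPM in parental and 120.4 and 125 in resistant libraries of C17.2. In C3.2 it held 142 and 138 in parental and 94.5 and 84.5 in resistant libraries. The parental libraries were thus the lowest of the 4 groups in C17.2 and the highest in C3.2, with no overlap between any groups. *HMGCS1* rose by 0.79 (SE 0.061) and fell by 0.64 (SE 0.061), a difference of 1.43 (SE 0.086, adjusted p = 0.000669 in limma).

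*ACAT2*, the cytosolic thiolase that joins acetyl-CoA units, went from 26.3 and 25.2 to 40.7 and 41.0 scaled TPM in C17.2 and from 37.1 and 32.8 to 29.0 and 26.8 in C3.2. It rose by 0.65 and fell by 0.32. *ACAT2* overlaps *TCP1* on the opposite strand, a chaperonin gene that rose by 0.37 in C17.2 and was at 0.087 in C3.2, and the sources used here do not say whether counting used strand. *IDI1*, the isomerase that makes the reactive isoprene unit, read 45.2 and 45.1 against 69.5 and 69.7 in C17.2 and 76.0 and 75.8 against 59.0 and 57.5 in C3.2. Its replicates were closer to each other than to any other group, and its rise of 0.61 and fall of 0.38 gave a difference of 0.99 (SE 0.052). *FDPS*, which makes farnesyl diphosphate, the last step shared with prenylation, read 79.9 and 76.3 against 105 and 109 and, in C3.2, 126 and 128 against 95.8 and 85.1. It rose by 0.45 and fell by 0.49, with no overlap between parental and resistant libraries in either clone.

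The 2 mevalonate kinases and the decarboxylase were expressed at lower levels and moved less clearly in C3.2. *MVK*, the first kinase, read 7.69 and 9.55 against 12.2 and 12.6 scaled TPM in C17.2 and 12.4 and 13.6 against 9.88 and 10.9 in C3.2. *MVD*, the decarboxylase, read 12.4 and 9.88 against 19.9 and 15.5 and 22.6 and 21.4 against 19.1 and 17.4. In each clone the resistant libraries of both genes lay on 1 side of the parental ones, above in C17.2 and below in C3.2. *MVK* rose by 0.49 and *MVD* by 0.62 in C17.2, but the changes in C3.2 (-0.29 and -0.26) did not pass. Their differences between the clones passed (0.78 and 0.88, adjusted p = 0.0249 and 0.0428 in limma). Leaving out single libraries ended the call for *MVD* in all 8 cases (values 0.71 to 1.05) and for *MVK* in 6 of 8 (0.64 to 0.92 over the 8), with C17.2 parental replicate 2 and C3.2 resistant replicate 2 as the exceptions. *PMVK*, the second kinase, rose by 0.46 in C17.2 and was at 0.039 in C3.2, with a difference that did not pass (0.42, adjusted p = 0.0791 in limma). *MVK* overlaps *MMAB* on the opposite strand, a gene with up to 23.59 TPM. *MMAB* was at 0.17 in C17.2 and -0.26 in C3.2, with a difference of 0.43 (adjusted p = 0.0348 in limma). How reads were divided between *MVK* and *MMAB* was not tested.

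**Figure D2:**
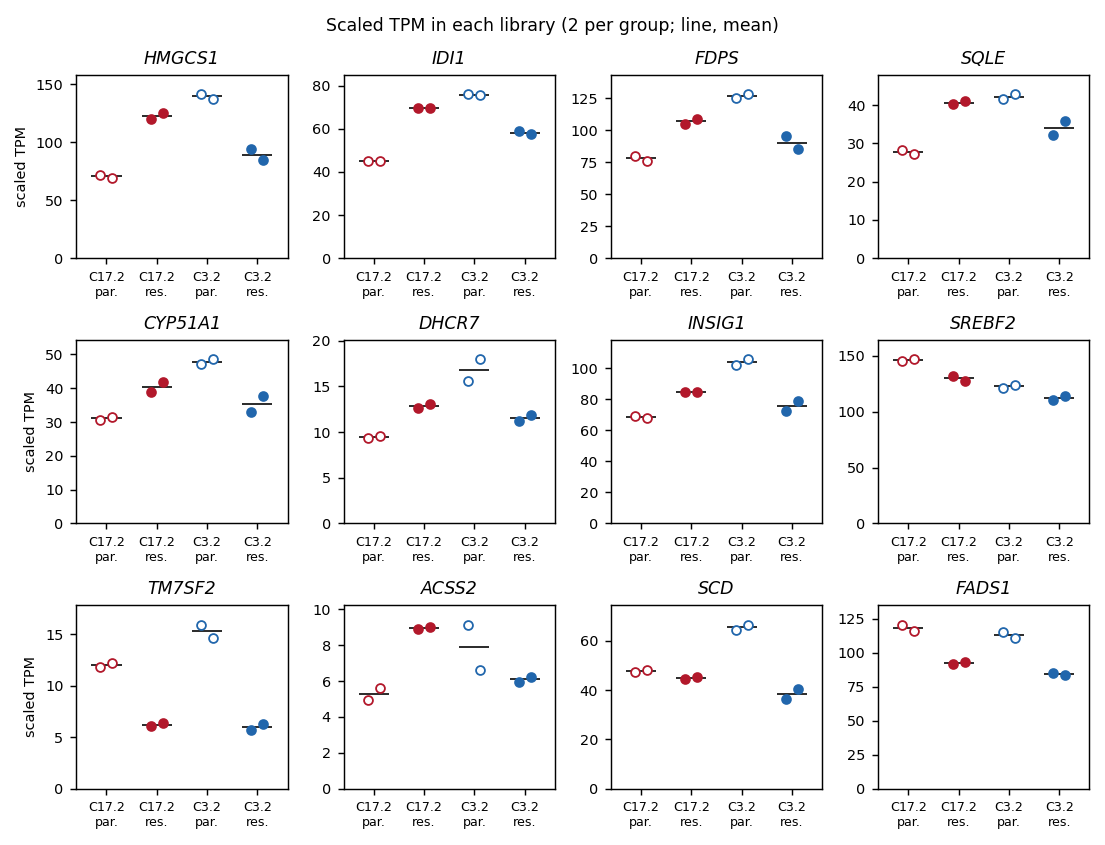
Scaled TPM (y axis, from 0) of 12 of the genes in each library, with 2 libraries per group, open points for parental and filled points for resistant cells, and lines for the means. HMGCS1, IDI1, FDPS, SQLE, CYP51A1, DHCR7 and INSIG1 are lowest in C17.2 parental cells and highest in C3.2 parental cells, whereas TM7SF2 and FADS1 fall in both clones.

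From squalene onward the enzymes make the sterol ring system and trim it to cholesterol. Of the 11 genes in this branch, 8 rose and 1 fell in C17.2, and 0 rose and 8 fell in C3.2. Of all tested genes 13.4% rose and 13.9% fell in C17.2, and 4.44% rose and 6.91% fell in C3.2. *FDFT1*, squalene synthase, the first step committed to sterols, read 105 and 106 scaled TPM against 119.7 and 122 in C17.2 and 145 and 144 against 110.1 and 109.9 in C3.2. It rose by only 0.20 and fell by 0.39, but its replicates were so close that the difference of 0.58 had an SE of 0.05. *SQLE*, the epoxidase and a rate-limiting step of the branch, read 28.3 and 27.2 against 40.3 and 40.9 and, in C3.2, 41.5 and 42.8 against 32.1 and 35.9. It rose by 0.53 and fell by 0.31 (difference 0.84). *LSS*, which closes the ring to lanosterol, read 18.1 and 17.6 against 20.1 and 19.7 in C17.2 and 30.4 and 28.4 against 21.0 and 20.1 in C3.2. The *LSS* change in C17.2 did not pass (0.15, adjusted p = 0.0807 in limma), although its libraries did not overlap, and the fall of 0.49 in C3.2 did.

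Of the enzymes after lanosterol, *CYP51A1*, the lanosterol demethylase, read 30.7 and 31.5 scaled TPM against 39.0 and 41.9 in C17.2 and 47.0 and 48.5 against 33.1 and 37.7 in C3.2. *MSMO1*, the C4-methyl oxidase, read 28.0 and 27.3 against 37.8 and 37.1 and 45.8 and 44.8 against 32.3 and 37.1. Both rose in C17.2 (0.37 and 0.42) and fell in C3.2 (-0.43 and -0.38), with no overlap of libraries within a clone. *EBP*, the sterol isomerase, read 47.4 and 49.6 against 65.2 and 66.5 and 68.4 and 70.6 against 54.2 and 58.9 in the same order. *DHCR7*, which makes cholesterol from 7-dehydrocholesterol, read 9.36 and 9.56 against 12.6 and 13.1 and 15.6 and 17.9 against 11.3 and 11.8. *EBP* rose by 0.43 and fell by 0.29, and *DHCR7* rose by 0.41 and fell by 0.50. The differences between the clones were 0.79 for *CYP51A1*, 0.80 for *MSMO1*, 0.73 for *EBP* and 0.91 for *DHCR7*. *CYP51A1* has 2 pseudogenes with up to 3.05 and 1.94 TPM and overlaps *AKAP9* on the opposite strand, so its reads may be split.

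*NSDHL*, a C4 demethylation enzyme, and *SC5D*, the C5 desaturase, rose in C17.2 (0.33 and 0.47), and their changes in C3.2 (-0.11 and -0.054) did not pass. *HSD17B7*, the ketoreductase of C4 demethylation, passed in neither clone (0.12 and -0.32), and it has an expressed pseudogene copy of up to 5.08 TPM. For these 3 genes the difference between the clones was positive without passing (0.44, 0.53 and 0.44).

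*TM7SF2* (ENSG00000149809.14), a sterol C14-reductase that acts after *CYP51A1*, did not follow its branch. It read 11.8 and 12.2 scaled TPM in parental and 6.04 and 6.39 in resistant libraries of C17.2, and 15.9 and 14.7 against 5.69 and 6.25 in C3.2. It was the only 1 of the 18 mevalonate and sterol enzymes that fell in C17.2, by 0.85 (SE 0.068), and it fell by 1.22 (SE 0.068) in C3.2, the largest fall of the 33 genes in both clones. Both falls passed in all 16 alternatives. The difference of 0.37 between the clones had the same sign as in the other enzymes without passing (adjusted p = 0.0631 in limma). *TM7SF2* overlaps *VPS51*, a gene of vesicle traffic on the same strand, which was at -0.32 (adjusted p = 0.138 in limma) and -0.28, so some reads may be shared.

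*STARD4*, which carries sterols between membranes, read 19.4 and 19.9 scaled TPM against 20.7 and 25.0 in C17.2 and 23.8 and 23.8 against 18.5 and 18.6 in C3.2. It fell by 0.35 in C3.2, did not pass in C17.2 (0.20), and differed between the clones by 0.55 (adjusted p = 0.0372 in limma). That difference was lost without any 1 library other than the 2 of C17.2 resistant cells (0.42 to 0.68 over the 8).

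Of the 9 fatty acid genes, 3 rose and 1 fell in C17.2, and 0 rose and 4 fell in C3.2. Of all tested genes 13.4% rose and 13.9% fell in C17.2, and 4.44% rose and 6.91% fell in C3.2. The change differed between the clones for 4 of the 9, all positive, where 4.97% of all tested genes were positive and 5.00% negative. *ACLY*, which makes cytosolic acetyl-CoA from citrate, read 55.7 and 54.7 scaled TPM against 64.7 and 65.3 in C17.2 and 75.5 and 76.3 against 62.2 and 64.2 in C3.2. *ACSS2*, which makes it from acetate, read 4.94 and 5.61 against 8.91 and 8.99 and 9.14 and 6.60 against 5.97 and 6.22. *ACLY* rose by 0.23 and fell by 0.26, a small but tight difference of 0.49 (SE 0.054). *ACSS2* rose by 0.67 in C17.2 without passing in C3.2 (-0.31), where its parental libraries were far apart. Its difference between the clones (0.97, SE 0.19) was lost without any 1 library other than the 2 of C3.2 parental cells (0.77 to 1.18 over the 8).

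The core enzymes of chain building, *ACACA* and *FASN*, passed in neither clone with the settings of the report. For both, the resistant libraries lay above the parental ones in C17.2 and below them in C3.2. *ACACA*, acetyl-CoA carboxylase, was at 0.19 in C17.2 (interval 0.041 to 0.33) and -0.10 in C3.2 (interval -0.25 to 0.043). *FASN*, fatty acid synthase, was at 0.19 (interval 0.034 to 0.35) and -0.12 (interval -0.28 to 0.041). Not every alternative left them out. The C17.2 changes reached 0.34 for *ACACA* and 0.35 for *FASN*, and each passed under another setting, as did their differences between the clones (up to 0.38 and 0.405). *ELOVL6*, an elongase, was at -0.047 and 0.061, and *LPIN1*, a phosphatidate phosphatase of glycerolipid synthesis, at 0.13 and 0.14, the only gene with both resistant libraries above both parental ones in the 2 clones alike.

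The desaturases parted from each other. *SCD*, which puts the first double bond into saturated chains, read 47.2 and 48.2 scaled TPM against 44.4 and 45.4 in C17.2 and 64.5 and 66.6 against 36.4 and 40.6 in C3.2. It fell by 0.75 in C3.2 and did not pass in C17.2 (-0.085, interval -0.23 to 0.057), so that the clones differed by 0.67 (SE 0.083) with no rise in either. *FADS1* and *FADS2*, the delta-5 and delta-6 desaturases of polyunsaturated chains, lie on opposite strands of chromosome 11 and overlap, at 61799627 to 61829318 on the reverse strand and 61792980 to 61867354 on the forward strand (GRCh38). *FADS1* read 121 and 116 against 92.0 and 93.5 in C17.2 and 115 and 110.5 against 84.7 and 83.4 in C3.2, and fell in both, by 0.35 and 0.42 (difference 0.072, interval -0.073 to 0.22). On the TPM as deposited its change in C17.2 was -0.19 and did not pass. *FADS2* read 166 and 160.4 against 195 and 190.4 and 199 and 204 against 171 and 177, and rose by 0.24 in C17.2 while falling by 0.21 in C3.2 (difference 0.46). Under the 3 other scalings that fall was 0.11 to 0.15 in size and did not pass. *FADS2* also overlaps *FEN1*, a DNA repair nuclease gene on the same strand, which rose by 0.49 in C17.2 and was at -0.024 in C3.2, and how reads were divided between them was not tested.

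The levels of the 4 groups were then set side by side. For each gene the mean log2 level of all 8 libraries was subtracted, and the median over the 18 mevalonate and sterol enzymes was taken in each library. For C17.2 it was -0.31 and -0.30 in parental and 0.084 and 0.13 in resistant libraries. For C3.2 it was 0.29 and 0.31 in parental and -0.12 and -0.017 in resistant libraries. The parental clones thus stood farthest apart, and the resistant libraries of both lay between them. The medians of the fatty acid genes spanned less, from -0.16 to 0.19, and those of the parental libraries of C17.2 overlapped those of the resistant libraries of C3.2. The medians of the 5 regulators did not rise in C17.2, at 0.087 and 0.10 in the parental and 0.046 and 0.017 in the resistant libraries. In C3.2 they fell, as those of the enzymes did, from -0.024 and 2.3e-05 in the parental to -0.18 and -0.14 in the resistant libraries.

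**Figure D3:**
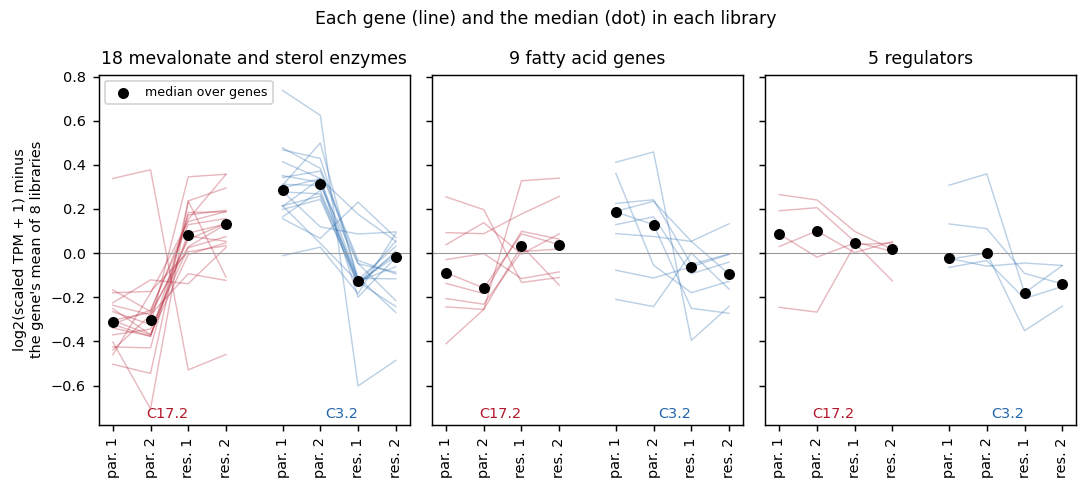
Log2(scaled TPM + 1) minus the gene's mean over the 8 libraries (y axis) in each library (x axis), for the 18 mevalonate and sterol enzymes, the 9 fatty acid genes and the 5 regulators. Lines are single genes and dots are medians. The enzyme medians start near -0.31 in C17.2 parental and near 0.3 in C3.2 parental cells and come together in resistant cells.

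Parental cells of the clones were compared directly, on the same libraries that enter the changes above. In C17.2 parental cells 23 of the 33 genes were lower and 3 higher than in C3.2 parental cells (median difference -0.45), where 11.9% of all tested genes were lower and 10.7% higher. Of the 18 enzymes, 17 were lower and 0 higher. The largest gaps were *HMGCS1* at -0.97 (SE 0.061), *MVD* at -0.93 (SE 0.14), *DHCR7* at -0.76 (SE 0.073) and *IDI1* at -0.74 (SE 0.037). *SC5D* was the enzyme that did not pass (-0.22). *FASN*, which passed in neither clone's change, was lower by 0.46 (adjusted p = 0.00512 in limma), and *INSIG1* by 0.59. The 3 genes that were higher in C17.2 parental cells were *SREBF1* (0.27), *SREBF2* (0.25) and *LPIN1* (0.32). RNA of both factors was therefore higher in the clone whose synthesis genes were lower. On the TPM as deposited 18 were lower and 5 higher, and without replicate 1 of C3.2 parental cells 17 were lower and 0 higher. Without any other parental library the number higher was 0 or 1, and each of the calls for *SREBF1*, *SREBF2* and *LPIN1* was lost in at least 1 such fit.

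In resistant cells the median gap was smaller and of the opposite sign. C17.2 was higher for 12 genes and lower for 0, with a median difference of 0.15, where 9.53% of all tested genes were higher and 10.8% lower. Of the 18 enzymes, 7 were higher and 0 lower past the threshold, and 13 differences were positive and 5 negative. Of the 12 calls, 4 held in all 15 alternatives (*ACAT2*, *HMGCS1*, *IDI1* and *SREBF1*). *ACAT2* (0.54, SE 0.07), *ACSS2* (0.49, SE 0.13) and *HMGCS1* (0.46, SE 0.061) had the largest gaps. *SREBF1* was again higher in C17.2 (0.35), as were *SREBF2* (0.21) and *LPIN1* (0.30). For *LSS* (-0.045, interval -0.17 to 0.081), *MVD* (-0.051) and *TM7SF2* (0.050) the resistant clones did not differ past the threshold. The count of 12 depended on the settings and was 27 on the TPM as deposited, 7 without a filter, 6 without an intensity trend and 4 to 12 with 1 library left out (7 or fewer without any 1 library but C3.2 resistant replicate 2). The resistant gap minus the parental gap is the difference between the clones given above, so these comparisons are not independent of it.

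**Figure D4:**
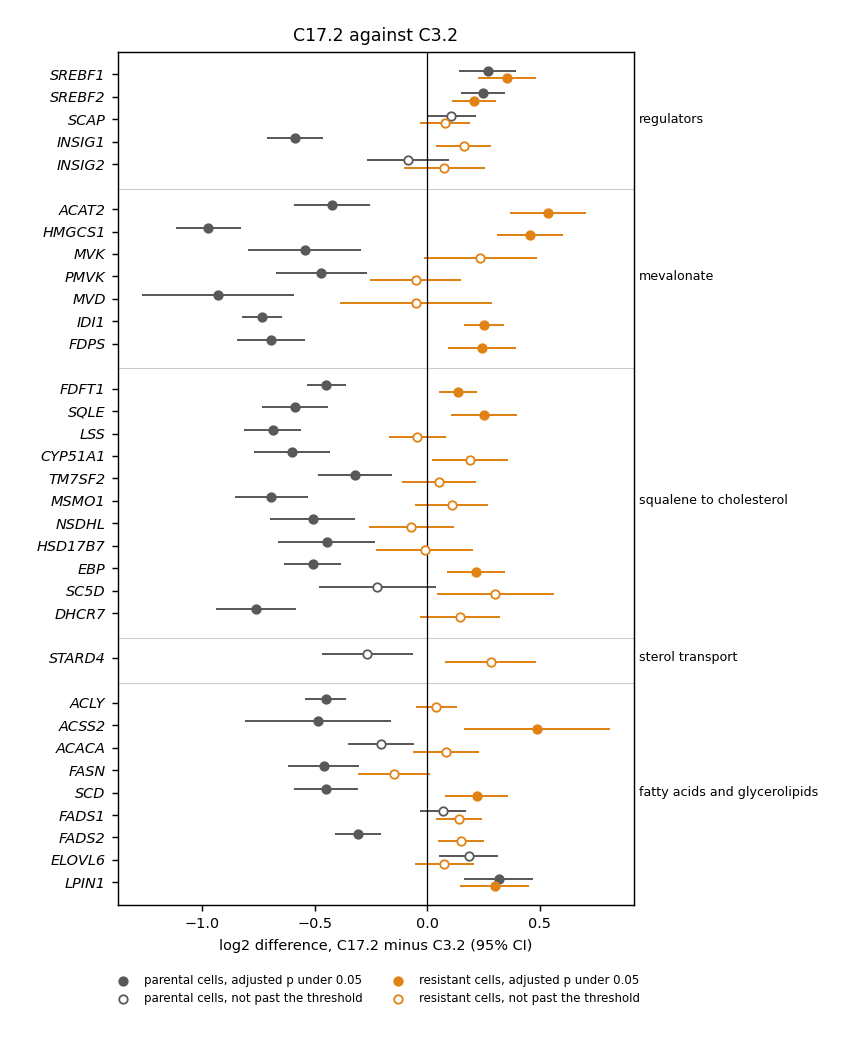
Log2 difference of C17.2 minus C3.2 for each of the 33 genes (x axis, 95% confidence interval from limma), in parental cells (grey) and resistant cells (orange), with filled points past the threshold. Enzyme genes lie left of 0 in parental cells and mostly near or right of 0 in resistant cells, while SREBF1, SREBF2 and LPIN1 lie right of 0 in both.

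A wider list of 76 lipid genes, of which 66 were tested, is given beside the shares over all tested genes. In C17.2, 10 rose and 9 fell, where 13.4% and 13.9% of all tested genes did. In C3.2, 2 rose and 8 fell, where 4.44% and 6.91% did. The change differed between the clones for 13 (8 positive and 5 negative, median of all 66 0.025), where it was positive for 4.97% and negative for 5.00% of all tested genes. No test compared this list with the 33 genes or with other genes. The 10 calls in C3.2 became 1 without either of its parental libraries and 3 to 7 without any other library, and the 13 became 5 to 7 without any 1 library but those of C3.2 resistant cells. Of 12 genes of the isoprenoid branch, 2 rose in C17.2, *NUS1* of dolichol synthesis (0.27) and *RABGGTB*, a subunit of a Rab prenyl transferase (0.44), and 0 passed in C3.2. The *NUS1* call was lost in 5 of the 8 fits without 1 library. Of 7 genes of SREBP cleavage and INSIG turnover, *ERLIN2* fell in C17.2 (-0.33), a call lost in 3 of 8. Of 5 tested genes of the LXR pathway, which acts when sterols are in excess, *LPCAT3* (0.40) and *RXRB* (0.27) rose and *MYLIP* fell (-0.32) in C17.2, with 0 passing in C3.2, and the *MYLIP* call was lost in 4 of 8.

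Among 9 tested genes of sterol uptake and traffic, *VLDLR*, a lipoprotein receptor, had the largest fall of all the lipid genes here. It read 20.9 and 20.6 scaled TPM in parental and 2.47 and 2.68 in resistant libraries of C17.2, and 7.13 and 7.38 against 1.29 and 1.32 in C3.2. The falls were -2.61 (SE 0.061) and -1.84 (SE 0.061), with a difference between the clones of -0.76. *NPC2*, which moves cholesterol out of lysosomes, rose by 0.51 in C17.2, and *TMEM97*, a sterol-regulated membrane protein, fell by 0.46 in C3.2, a call lost in 4 of the 8 fits without 1 library. Of 19 tested genes of other fatty acid and glycerolipid synthesis, 4 rose and 4 fell in C17.2 and 1 rose and 3 fell in C3.2. Of all tested genes 13.4% rose and 13.9% fell in C17.2, and 4.44% rose and 6.91% fell in C3.2. *MID1IP1*, which promotes acetyl-CoA carboxylase assembly, fell in both clones (-1.02 and -0.38), the second a call lost in 3 of 8. *ACSL1*, an acyl-CoA synthetase, fell in C17.2 (-0.41) and was at 0.24 in C3.2, where its call was lost in 8 of 8. *DGAT1* (0.70) and *GPAM* (0.57), acyltransferases of triglyceride synthesis, rose in C17.2, where *ACSL6*, expressed near 1 TPM at most, fell (-0.58), and the desaturase *SCD5* was at -0.28 in C3.2. The *SCD5* call was lost in 8 of 8, the *GPAM* call in 2 of 8 and the *ACSL6* call in 3 of 7, since the filter removed *ACSL6* from the remaining fit. Of 14 tested genes of fatty acid oxidation, *HADH* (-0.70) and *HADHA* (-0.26) fell and *ETFB* rose (0.38) in C17.2, and *HADHA* (-0.23) and *ACADM* (-0.28) were among 3 that fell in C3.2. Of these calls that of *ACADM* was lost in 7 of 8, that of *ETFB* in 3 of 8 and that of *HADHA* in C3.2 in 2 of 8. The C17.2 call of *HADHA* was lost in 0 of 8, but not every other alternative kept it (-0.27 to -0.11, adjusted p up to 0.209 in limma).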

How the data were processed

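Total RNA from parental and resistant cells of C17.2 and C3.2 was sequenced after removal of ribosomal RNA. Per the paper's methods and the submitters' processing notes, the authors trimmed reads with Trim Galore 0.6.3, aligned them to GRCh38 with STAR 2.7.9a and ran RSEM 1.3.1 with Gencode release 31 as annotation. The values deposited by the authors are TPM, 1 column per library and not scaled across libraries. Sequencing depth and counting error cannot be read from such values and are unknown. Protein-coding genes took 36.0% to 43.3% of TPM and snRNA genes 31.2% to 37.6%, and Pearson's r between the 2 libraries of a group, across genes, was 0.968 to 0.979.

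Of 60754 rows, 15614 reached a TPM of 1 in some library and were tested. Library factors were trimmed means of log2 ratios to the geometric mean library (30% of ratios and 5% of means trimmed at each end). Log2(scaled TPM + 1) was fitted in limma 3.58.1 (R 4.3.3) with an intensity trend, 1 model with 4 groups and no covariate, and Benjamini-Hochberg adjustment of the two-sided p-values covered all tested genes. The study used limma-voom on counts, which TPM does not allow. An exact permutation of 2 libraries against 2 cannot go below 0.333. The members and gene lists were chosen with earlier results of these data known. Values in every library are given for those of the 33 genes whose difference between the clones passed, for those that passed in a clone with a log2 change of at least 0.5 in size, for the 5 regulators and, of the wider genes, for *VLDLR*, chosen after its values were seen. Of each wider list the 2 largest rises and 2 largest falls past the threshold in either clone are named, and 1 gene that the rule names is not reported here. The comparison of the resistant clones and the count of opposite changes were added after the data were seen. Positions are from Gencode release 44 on GRCh38, and promoters from RefSeq on GRCh38.p14. Alternatives were 3 other scalings, a pseudocount of 0.1, 2 other filters, no intensity trend, each clone fitted alone and leaving out each library.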

Additional observations from a re-analysis of the deposited data

Results flagged for a closer look

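The change from parental to resistant cells differed between the clones by the limma interaction test for 19 of the 33 genes and for 10 genes of the wider lipid list that are named above. The values below are the log2 change in C17.2 minus that in C3.2. For the mevalonate genes they were 1.43 for *HMGCS1*, 0.99 for *IDI1*, 0.96 for *ACAT2*, 0.94 for *FDPS*, 0.88 for *MVD* and 0.78 for *MVK*. For the sterol enzymes they were 0.91 for *DHCR7*, 0.84 for *SQLE*, 0.80 for *MSMO1*, 0.79 for *CYP51A1*, 0.73 for *EBP*, 0.64 for *LSS* and 0.58 for *FDFT1*. *INSIG1* had 0.75 and *STARD4* 0.55. For the fatty acid genes they were 0.97 for *ACSS2*, 0.67 for *SCD*, 0.49 for *ACLY* and 0.46 for *FADS2*.

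In the wider list the difference was positive for *TMEM97* (0.62), *NPC2* (0.58), *RABGGTB* (0.54), *SCD5* (0.44), *LPCAT3* (0.39) and *RXRB* (0.29). It was negative for *VLDLR* (-0.76), *ACSL1* (-0.64), *MID1IP1* (-0.64) and *HADH* (-0.52). With each of the 8 libraries left out in turn, these calls were lost in 6 fits for *TMEM97*, 5 for *NPC2*, 7 for *SCD5*, 6 for *LPCAT3*, 7 for *RXRB* and 5 for *HADH*, and in 0 for *RABGGTB*, *VLDLR*, *ACSL1* and *MID1IP1*.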

How the results depend on the processing

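The count of genes whose change differed between the clones was 15 to 20 under 15 alternatives (15 to 17 with 1 library left out), all positive, and 15 of the 19 passed under every one, with *MVK*, *MVD*, *STARD4* and *ACSS2* as the exceptions. In C17.2 the count of 23 (19 higher, 4 lower) became 23 higher and 1 lower on the TPM as deposited, which shifts the median of all genes by 0.13, and 14 to 24 with 1 library left out, with 14 without parental replicate 1 and 15 without resistant replicate 2. Of these 23 calls, 12 held in all 16 alternatives. Other C17.2 changes passed only under an alternative, among them those of *LSS*, *ACACA* and *FASN*. In C3.2 the count of 19 became 12 on the TPM as deposited, 7 with the clone fitted alone and 8 to 17 with 1 library left out, with 9 and 8 without parental replicates 1 and 2, and 7 of the calls held throughout. Opposite changes in both clones were 13 genes, 3 with each clone fitted alone and 4 to 12 with 1 library left out. The 26 genes that differed between parental clones were 17 to 26 with 1 library left out. The 12 that differed between resistant clones were 27 on the TPM as deposited, which shifts the median of all genes by 0.22, 7 without a filter, 6 without a trend and 4 to 12 with 1 library left out. Of the wider genes, 10 passed in C3.2 and 3 on the TPM as deposited, 6 with quantile normalization, 6 without a filter, 1 with the clone fitted alone and 1 to 7 with 1 library left out. In C17.2 the wider count was 13 to 20 and for the difference between the clones 5 to 13.

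Changes that turned sign had not passed with the settings of the report. On the TPM as deposited these were the C17.2 changes of *SCAP* (0.12), *INSIG2* (0.070), *SCD* (0.073) and *ELOVL6* (0.11), the C3.2 changes of *SCAP* (0.056) and *SC5D* (0.0092), the differences between the clones of *SREBF2* (0.053), *SCAP* (0.063) and *LPIN1* (0.075), and the parental difference of *INSIG2* (0.060). With TPM rescaled over protein-coding genes they were *SCAP* (0.044), *INSIG2* (0.0014) and *ELOVL6* (0.037) in C17.2 and *SCAP* (0.092) and *SC5D* (0.045) in C3.2, and with quantile normalization *SCAP* in C3.2 (0.021). With 1 library left out, the C17.2 change of *INSIG2* ran from -0.16 to 0.013 and of *ELOVL6* from -0.096 to 0.0033. The C3.2 change of *SCAP* ran from -0.026 to 0.0091, of *PMVK* from -0.043 to 0.12 and of *SC5D* from -0.19 to 0.081. The difference between the clones ran from -0.064 to 0.0058 for *SCAP* and from -0.099 to 0.065 for *LPIN1*. The cause was not tested. Depth is unknown, so the precision of single libraries is not known. No paired analysis was possible because the labels give no replicate numbers.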
